A study of Mus musculus with 56 samples.

Results

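The genes described here are 8 costimulatory and checkpoint ligands, taken as a fixed list of symbols and found by their Ensembl identifiers among the 50600 genes that the files report. They are Cd80, Cd86, Cd40, Cd83, Cd274, Pdcd1lg2, Icosl and Cd70, and all 8 were measured in every sample and passed the filter on low expression in both cell types. RNA was sequenced from cortical and medullary thymic epithelial cells (cTECs and mTECs) in 56 samples, 28 per cell type. The mice were B6.SJL females (strain B.6SJL-Ptprca Pep3b/BoyJ, which carry the CD45.1 allele) mated with BALB/cJ males. Thymi were taken at D-2 (2 days before delivery, in pregnant females), on the day of delivery (D0) and at 13 later time points up to D28, and pups were removed at birth. NPC are non-pregnant control females of matched age. Each replicate was 1 mouse, from which EpCAM+CD45- cells were sorted as UEA1- (cTECs) or UEA1+ (mTECs), UEA1 being a lectin that binds mTECs. There were 3 samples per cell type in NPC, in late gestation (D-2), at delivery (D0) and at D3, D6 and D12, and 1 at each other time point, so a value at those times has no replicate error. D0 to D12 is called early regeneration (18 samples per cell type) and D16 to D28 late regeneration (4 samples per cell type).

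T cells read a peptide on an antigen-presenting cell together with a second signal from ligands of the kind listed here. CD80 and CD86 bind CD28, which promotes activation, and CTLA-4, which restrains it. CD40 is a receptor of the TNF receptor family, bound by CD40 ligand on T cells, and CD70 and ICOS ligand bind CD27 and ICOS. PD-L1 (Cd274) and PD-L2 (Pdcd1lg2) bind the inhibitory receptor PD-1. CD83 stabilises MHC class II at the cell surface and is needed in cTECs for the development of CD4 T cells. In the thymus, mature mTECs that express the autoimmune regulator Aire are known for high CD80 and MHC class II, and CD80, CD86 and CD40 on mTECs take part in the removal of self-reactive thymocytes and the generation of regulatory T cells.

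The libraries held 4561208 to 108547384 expected counts, the median being 22823582 for cTECs and 15590738 for mTECs, and each library had between 10481 and 25798 genes with counts. The sorted populations carried the markers of their labels. Of 9 cTEC markers, 8 were higher in cTECs, including Prss16, Cxcl12 and Enpep. Of 9 mTEC markers, 7 were higher in mTECs, including Aire, Spib and Tnfrsf11a. Each population also held transcripts of the other list. The summed mTEC markers were 3671 to 8133 FPKM in cTECs and 10530 to 19970 in mTECs. The summed cTEC markers were 1601 to 12300 FPKM in cTECs and 832 to 4878 in mTECs. The part of this in the ligand levels was not tested. The libraries with the fewest genes were cTEC D3 replicate 2 (10481 genes, with Cd86, Cd40, Pdcd1lg2 and Cd70 at 0 counts) and mTEC D3 replicate 1 (11995 genes, with Cd86 at 0). Leaving out both, which was decided after their gene numbers were seen, left the number of ligands called at 7 for cTECs against mTECs, at 1 and 0 for late against early regeneration in cTECs and mTECs, and at 0 for the interaction of the last with cell type.

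Levels are given as FPKM (fragments scaled by transcript length and library size), the unit the authors deposited beside the counts, as mean ± SD. FPKM is scaled by length, so levels of different genes can be compared. Differences were tested with limma-voom on the expected counts of all genes that passed the filter. Calls required a 2-fold difference and an adjusted p (Benjamini-Hochberg) no higher than 0.01, and fold changes from this fit are given as log2 values with their SE. Where groups are said to overlap or not, this describes the samples only. Groups this small can separate by chance. The share of all tested genes that separate in the same way was not counted, so lack of overlap was not taken as a call.

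Both cell types used this set of ligands in different proportions. In cTECs, Cd274 and Cd83 stood far above the other 6 ligands and together made up 88.2% ± 5.59 of the summed FPKM of the 8 genes (n = 28). In mTECs the same pair made up 35.8% ± 13.0, and Cd40 (27.3% ± 7.69) and Icosl (14.9% ± 4.75) took much of the rest. Of the 8 ligands, 7 were called between cTECs and mTECs over the 56 samples with time point in the fit, 6 of them higher in mTECs and 1 in cTECs. Of the 18394 genes tested, 21.2% were called, 16.5% as higher in mTECs and 4.7% as higher in cTECs.

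**Figure D1:**
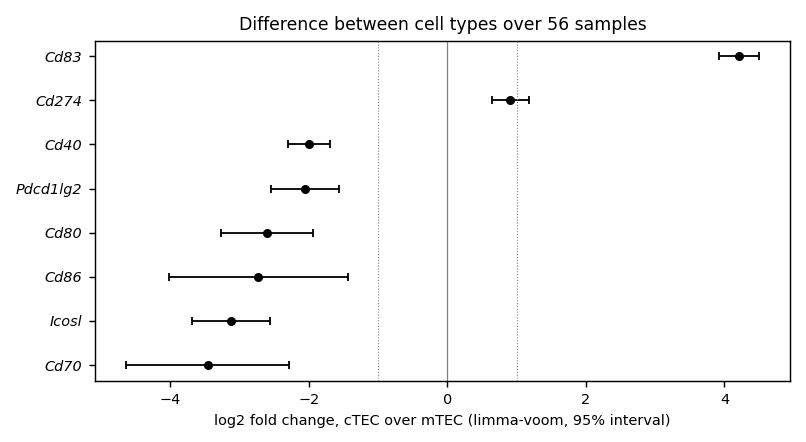
Difference between cell types for each ligand, as log2 fold change of cTECs over mTECs with its 95% interval from limma-voom on 56 samples (positive values are higher in cTECs, and dotted lines mark a 2-fold difference). Cd83 lies at 4.21, Cd274 just inside the dotted line at 0.91, and the other 6 ligands between -1.99 and -3.46.

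In cTECs the order of mean levels over 28 samples was Cd274 (116 FPKM ± 58.2), Cd83 (115 ± 71.9), Cd40 (14.1 ± 6.57), Pdcd1lg2 (4.58 ± 3.16), Icosl (3.60 ± 2.37), Cd80 (3.01 ± 2.70), Cd86 (0.89 ± 1.13) and Cd70 (0.60 ± 0.60). Only the step from Cd83 down to Cd40 was present in all 28 libraries. Cd274 was above Cd83 in 15 of 28, and the neighbours among Pdcd1lg2, Icosl and Cd80 overlapped widely. In mTECs the order was Cd274 (62.4 FPKM ± 32.1), Cd40 (55.3 ± 25.2), Icosl (31.8 ± 22.4), Pdcd1lg2 (18.0 ± 6.39), Cd80 (16.1 ± 10.8), Cd70 (6.77 ± 5.74), Cd83 (6.69 ± 3.37) and Cd86 (3.66 ± 3.57). Cd274 was above Cd40 in 17 of 28 mTEC libraries, and Pdcd1lg2 above Cd80 in 18, while Cd83 was above Cd70 in 16 despite its lower mean, so these neighbours cannot be ranked apart.

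Cd83 (ENSMUSG00000015396, chr13:43784775-43803132 on GRCm38, plus strand) was the ligand with the widest gap between the cell types. Its lowest, median and highest FPKM were 12.3, 111 and 248 in cTECs and 2.28, 6.70 and 13.2 in mTECs. The ranges overlapped through 1 cTEC library of D-2, at 12.3 FPKM, and the cTEC sample was the higher in all 26 pairs of samples that share a time point and a number. Between the cell types, the log2 fold change of cTECs over mTECs was 4.21 ± 0.14 (SE, limma-voom, adjusted p = 2.23e-28), an 18.5-fold difference.

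Cd274 (ENSMUSG00000016496, chr19:29367455-29388095, plus strand), which encodes PD-L1, was the highest of the 8 ligands on average in both cell types. Its FPKM ran from 47.4 to 317 in cTECs (median 104.5) and from 30.7 to 168 in mTECs (median 56.1), and most of the mTEC range lay within that of cTECs. It was higher in the cTEC sample of 24 of 26 pairs. Its log2 fold change was 0.91 ± 0.13 with an adjusted p of 9.22e-08 by limma-voom, below the 2-fold threshold, so it was not called.

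Cd40 (ENSMUSG00000017652, chr2:165055627-165072948, plus strand) ranged from 18.8 to 118 FPKM in mTECs (median 48.7) and from 0 to 25.4 in cTECs (median 14.6). It was higher in mTECs in all 26 pairs, and the 2 cell types did not overlap at any of the 6 time points with 3 samples or in late regeneration. Its log2 fold change was -1.99 ± 0.15 (limma-voom, adjusted p = 1.49e-15), so the mTEC level was 3.99-fold the cTEC level.

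Icosl (ENSMUSG00000000732, chr10:78069302-78083913, plus strand), the ligand of ICOS, ranged from 4.79 to 114 FPKM in mTECs (median 28.6) and from 0.90 to 10.2 in cTECs (median 3.00). It was higher in mTECs in all 26 pairs. In the fit its log2 fold change was -3.12 ± 0.28 (limma-voom, adjusted p = 2.44e-13), and the cell types again did not overlap at any replicated time point.

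Pdcd1lg2 (ENSMUSG00000016498, chr19:29410919-29471161, plus strand), which encodes PD-L2, ranged from 5.12 to 33.0 FPKM in mTECs (median 17.7) and from 0 to 13.5 in cTECs (median 4.07). All 26 pairs had the higher value in mTECs, and the log2 fold change was -2.05 ± 0.25 (limma-voom, adjusted p = 8.93e-10). PD-L1 and PD-L2 share a receptor and their genes lie on the same strand with 22823 bases between them, yet the sign of the difference between cell types was opposite. These promoters are shown because the pair stands next to each other with unlike patterns, and Icosl is added as the gene with the steepest mTEC preference for which the reference table gave a promoter.

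Cd274 promoter, chr19:29367188-29367487, plus strand: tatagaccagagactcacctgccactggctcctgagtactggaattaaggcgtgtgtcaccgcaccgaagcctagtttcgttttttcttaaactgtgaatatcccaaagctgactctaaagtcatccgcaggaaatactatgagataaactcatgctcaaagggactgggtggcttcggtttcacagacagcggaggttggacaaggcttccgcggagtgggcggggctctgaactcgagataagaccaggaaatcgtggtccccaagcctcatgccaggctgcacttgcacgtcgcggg
Pdcd1lg2 promoter, chr19:29410669-29410968, plus strand: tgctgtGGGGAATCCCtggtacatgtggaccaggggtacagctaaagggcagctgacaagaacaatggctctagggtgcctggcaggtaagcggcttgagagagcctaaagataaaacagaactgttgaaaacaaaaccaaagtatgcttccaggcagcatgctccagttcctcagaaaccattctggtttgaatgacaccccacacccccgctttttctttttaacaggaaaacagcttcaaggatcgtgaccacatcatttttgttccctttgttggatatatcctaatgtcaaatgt
Icosl promoter, chr10:78069118-78069417, plus strand: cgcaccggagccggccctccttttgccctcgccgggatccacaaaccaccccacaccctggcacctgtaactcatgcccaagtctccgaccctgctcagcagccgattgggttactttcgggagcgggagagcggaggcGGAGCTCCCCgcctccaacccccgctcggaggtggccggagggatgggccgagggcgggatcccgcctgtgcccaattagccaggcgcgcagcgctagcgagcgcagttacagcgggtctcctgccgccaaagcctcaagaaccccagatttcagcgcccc

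Each promoter is 300 bases of RefSeq sequence on GRCm38.p6, from 250 bases before to 50 after a start that RefSeq gives, and the table held one for 4 of the 8 ligands (these 3 and Cd80). The RefSeq start is the GENCODE gene start printed above for Pdcd1lg2 but another position for Cd274 and Icosl, and the Cd80 window lies inside the GENCODE gene. Positions of matches are relative to the RefSeq start. Capitals mark the matches to the NF-kB consensus, searched on both strands. Pdcd1lg2 had 1 match from -244 to -235 relative to the start, and Icosl had 1 on the minus strand from -111 to -102. Of 32851 promoters of the same length, 8.46% held such a match. The interferon-type GAS motif TTCNNNGAA, present in 8.30% of promoters, had no match in the 4 windows. The Icosl window held 26 CG dinucleotides, the Cd274 window 15 and the Pdcd1lg2 window 3, against a median of 7 over all promoters. A match is a description of these letters and was not tied to binding of any factor.

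Cd80 (ENSMUSG00000075122, chr16:38455561-38496335, plus strand) ranged from 4.16 to 46.6 FPKM in mTECs and from 0 to 10.1 in cTECs (median 2.26). It was higher in the mTEC sample of 25 of 26 pairs, and the log2 fold change was -2.60 ± 0.33 (limma-voom, adjusted p = 3.34e-09). Cd86 (ENSMUSG00000022901, chr16:36603869-36666081, minus strand), its partner for CD28 and CTLA-4, was much lower, from 0 to 13.5 FPKM in mTECs (median 2.32) and from 0 to 3.36 in cTECs (median 0.36). Cd86 had no counts in 11 of 28 cTEC and 4 of 28 mTEC libraries. In these libraries 3 counts, taken as an approximate upper limit for a count of 0, would have been 0.0389 to 0.354 FPKM, counting error only. The log2 fold change of Cd86 was -2.73 ± 0.64 (limma-voom, adjusted p = 0.00034), with the mTEC value higher in 19 of 26 pairs. On the 6 time points with 3 samples per cell type alone it was -1.64 with an adjusted p of 0.0943, so the call of Cd86 rested in part on the single-sample time points.

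Cd70 (ENSMUSG00000019489, chr17:57145997-57149777, minus strand), the ligand of CD27, was near the limit of detection in cTECs, with 0 counts in 11 of 28 libraries and at most 1.83 FPKM. In mTECs it ranged from 0 to 17.2 FPKM (median 4.53), with 3 libraries at 0 counts. The log2 fold change was -3.46 ± 0.58 (limma-voom, adjusted p = 2.08e-06), and the mTEC value was the higher in 23 of 26 pairs.

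Genes of the same pathways were followed from lists written for this purpose. Of 15 tested genes of other ligands and adhesion partners, Cd200 was higher in cTECs (log2 fold change 1.39 ± 0.11) and Tnfsf9, which encodes 4-1BB ligand, was higher in mTECs (-2.55 ± 0.71), and 13 were not called by limma-voom. The receptors to which the ligands bind had unequal levels. Cd28 had a median of 1.62 FPKM in cTECs and 1.39 in mTECs, and Cd27 of 2.92 and 1.19. Pdcd1 had a median of 0 FPKM in cTECs and 0.09 in mTECs, Ctla4 0.095 and 0.17, Icos 0.08 and 0.06, and Cd40lg had no counts in 27 of 28 cTEC and 24 of 28 mTEC libraries. Of 7 receptors that passed the filter, Cd27 was higher in cTECs (1.52 ± 0.49), and Tnfrsf4 (-3.58 ± 0.48) and Tnfrsf9 (-3.04 ± 0.45) were higher in mTECs.

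The NF-kB pathway, through which RANK and CD40 act in mTECs, was followed by 15 genes. Of these 15 NF-kB pathway genes, Tnfrsf11a, which encodes RANK, was called as higher in mTECs (-2.56 ± 0.16) and 14 were not called, with a median log2 fold change of -0.52 beside -0.03 over all genes tested. Of 10 tested genes of MHC class II presentation, H2-Ob, a chaperone subunit that modulates peptide loading, was higher in mTECs (-1.51 ± 0.17), and of 13 interferon response genes Cxcl9, a chemokine, was higher in mTECs (-3.67 ± 0.22). The median over the class II list was -0.05 and that over the interferon list 0.13.

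Transcripts of other cells were also unequal between the sorted populations. The summed FPKM of 22 dendritic cell and macrophage markers was 19.2 to 76.9 in cTECs and 45.9 to 445 in mTECs, and 12 of 18 tested were called as higher in mTECs, including Adgre1, Flt3 and Mrc1, while Ptprc (CD45) was higher in cTECs. Of the dendritic cell genes, Itgax was at 0 counts in 15 of 28 cTEC and 11 of 28 mTEC libraries and reached 14.55 FPKM in mTECs, and Clec9a was at 0 in 24 and 22. Zbtb46 and Ccr7 were at 0 in no mTEC library, with 2.95 to 11.03 and 2.43 to 15.92 FPKM. In mTECs Fscn1 had a median of 58.2 FPKM and Lyz2 one of 49.0. Of 9 B cell markers, 6 were higher in mTECs, including Fcer2a, Pax5 and Cd22, with summed FPKM of 8.97 to 52.0 in cTECs and 38.3 to 139 in mTECs. Of 15 thymocyte markers, 10 were higher in cTECs, including Rag2, Cd3e and Cd8b1. Dendritic cells, macrophages and B cells are themselves known to express these ligands, and the part of such cells in the difference between cTECs and mTECs was not tested. In bulk RNA, a change in the share of cells that express a ligand and a change in RNA per cell cannot be told apart.

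**Figure D2:**
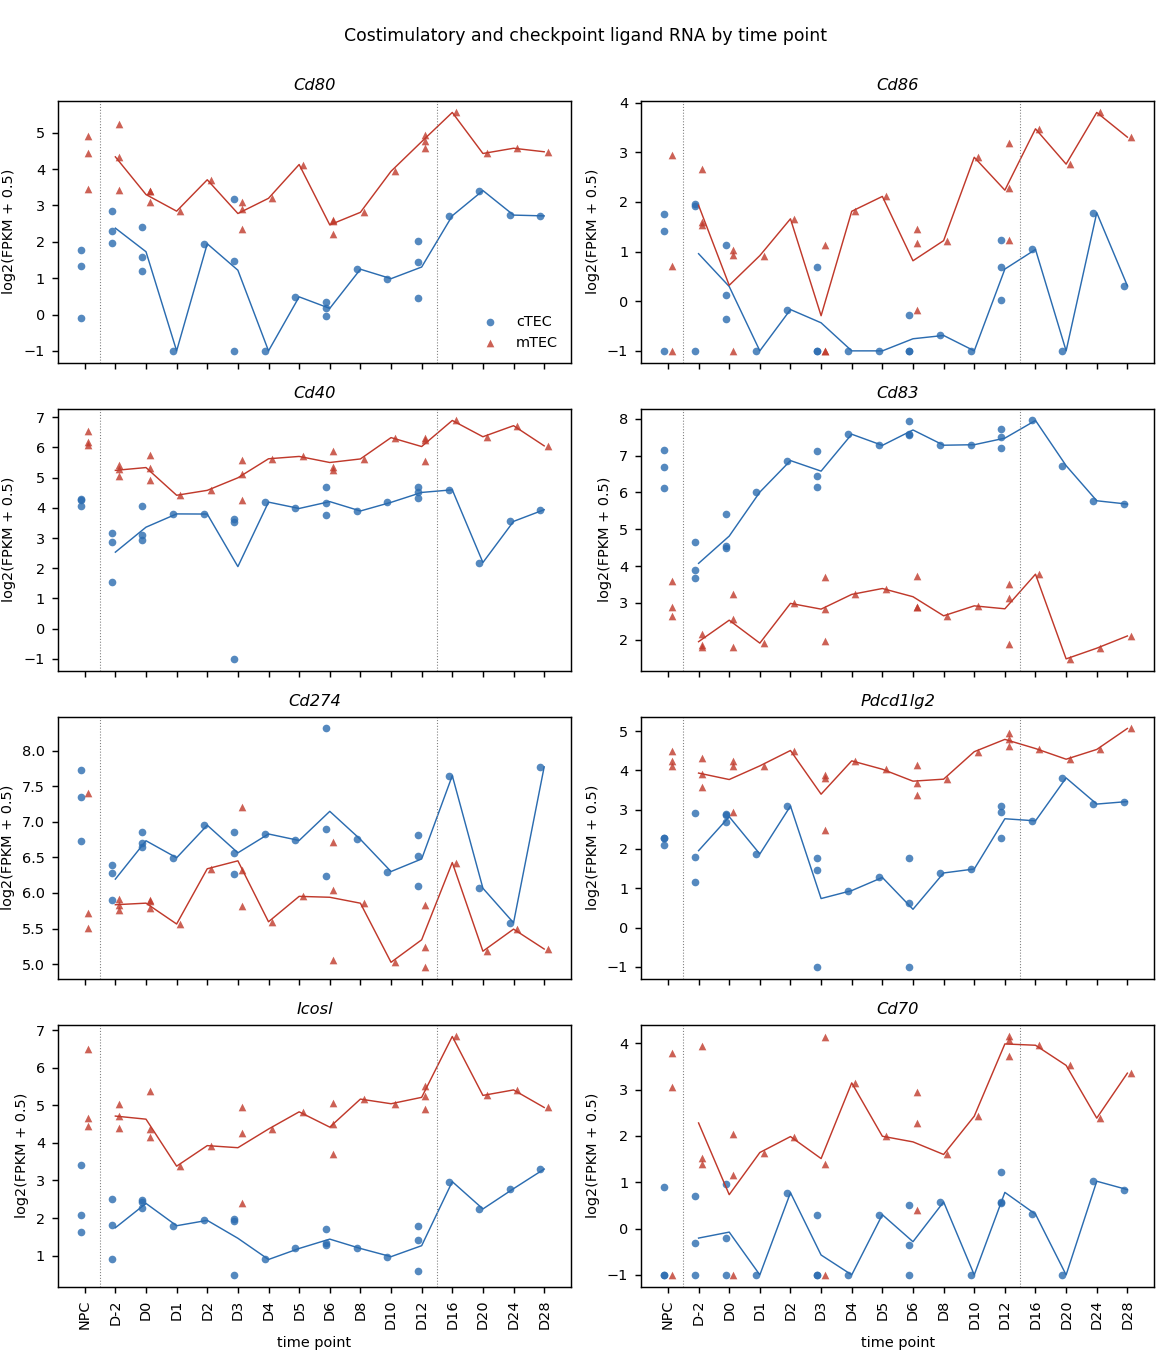
Level of each ligand in every sample, as log2(FPKM + 0.5), against time point for cTECs (circles) and mTECs (triangles). Lines join the means from D-2 to D28, dotted lines separate NPC and late regeneration, and a value of -1 is a library with an FPKM of 0. Cd83 in cTECs climbs from D-2 to D6, and Cd80 in mTECs is lowest near D6 and highest at D16.

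Late gestation was compared with NPC to ask how pregnancy had altered the ligands. No ligand was called in either cell type by limma-voom, and no gene at all was called in this comparison (0% of 15845 genes in cTECs and 0% of 17743 in mTECs). At an unadjusted p below 0.05 there were 1564 genes in cTECs and 2267 in mTECs, of which 3 and 2 were ligands. The edgeR quasi-likelihood test called 0 and 0 ligands in cTECs and mTECs, and 0 and 0 genes. The Wald test of DESeq2 called 2 (Cd83 and Cd274 in cTECs) and 0 ligands, beside 96 and 165 genes.

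Cd83 showed the clearest separation. In cTECs it was 102, 142 and 69.1 FPKM in the 3 NPC mice and 14.3, 12.3 and 24.6 at D-2, so the groups did not overlap. The log2 fold change was -2.62 ± 0.37, with an unadjusted p of 5.33e-05 and an adjusted p of 0.0622 by limma-voom. Without the filter on low expression the same difference was called (-2.66, adjusted p = 0.00066), as 1 of 46 genes called in that setting. In the same cTEC samples the summed thymocyte markers averaged 103 FPKM in NPC and 25.5 at D-2 (median log2 fold change -2.01 over 15 genes, none called) and the summed cTEC markers 6819 and 2184 (-1.61 over 9 genes, none called), beside a median of 0.0307 over all genes tested, and the part of either in the Cd83 values was not tested. In mTECs Cd83 was 6.88, 5.78 and 11.47 FPKM in NPC and 3.98, 2.99 and 3.13 at D-2, again without overlap, with a log2 fold change of -1.07 ± 0.45 (adjusted p = 0.361).

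Cd40 and Cd274 also lay lower at D-2 in cTECs. Cd40 was 18.8, 18.9 and 16.3 FPKM in NPC against 2.42, 6.88 and 8.48 at D-2, and Cd274 was 105.5, 163 and 211 against 77.3, 83.7 and 59.5. Neither pair of groups overlapped, and the log2 fold changes were -1.12 ± 0.50 and -1.04 ± 0.24, with adjusted p of 0.512 and 0.246 by limma-voom. No gene was called by limma-voom in this comparison, so the separation only describes these mice. In mTECs, Cd40 was 72.7, 66.4 and 92.5 FPKM in NPC and 32.3, 41.9 and 38.3 at D-2, without overlap, and its log2 fold change was -0.71 ± 0.28 (adjusted p = 0.340). Cd80 in cTECs was higher at D-2 without overlap, at 4.44, 6.69 and 3.43 FPKM against 2.93, 0.43 and 2.02 in NPC (2.06 ± 0.85, adjusted p = 0.491). Cd80 in mTECs spanned 10.46 to 29.65 FPKM in NPC and 10.3 to 37.5 at D-2, with full overlap.

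D6 was then compared with D-2, to follow the ligands from late gestation into regeneration. In cTECs 1 ligand was called, Cd83, beside 1.34% of the 15845 genes tested. In mTECs no ligand was called by limma-voom, beside 0.299% of 17743 genes. At an unadjusted p below 0.05 there were 3 ligands, beside 3596 of the 17743 genes. Of the ligands edgeR called 0, beside 91 genes, and DESeq2 called 2 (Cd80 and Cd83), beside 470 genes.

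Cd83 in cTECs was 193, 246 and 188 FPKM at D6 against 14.3, 12.3 and 24.6 at D-2. Every D6 mouse was therefore more than 7-fold above every D-2 mouse, and the log2 fold change was 3.66 ± 0.27 (limma-voom, adjusted p = 0.00026). It was called under each alternative and with each of the 6 samples left out, with a log2 fold change of 3.41 to 3.93. The values between these times were 22.7, 41.8 and 22.2 FPKM at D0, 63.9 at D1, 116 at D2, 86.9, 140 and 70.7 at D3, 191 at D4 and 155 at D5. The level had thus passed the lowest NPC value of 69.1 by D2, and stayed between 148 and 246 from D4 to D12 (n = 10).

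Cd83 moved with other genes of cTECs in the same comparison. Of 9 cTEC markers, 7 were higher at D6, led by Dll4 (3.95 ± 0.35), Prss16 (3.71 ± 0.22) and Psmb11 (3.67 ± 0.34). Over the 28 cTEC samples, the genes most like Cd83 in log2(FPKM + 0.5) among 10068 with a mean FPKM of at least 5 were Prss16 (Pearson's r = 0.97), a serine protease of the cTEC lysosome, Cstb (0.96), an inhibitor of cathepsins, and Tbata (0.95). Its r was 0.97 with the summed cTEC markers, 0.83 with the summed thymocyte markers, 0.50 with Foxn1 and -0.33 with Aire. These points share libraries, and the summed thymocyte markers were 23.8 to 27.0 FPKM at D-2 and 78.3 to 97.3 at D6 in cTECs. The part of thymocyte RNA in the difference was not tested.

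The same comparison in mTECs gave a smaller difference for Cd83, from 3.98, 2.99 and 3.13 FPKM at D-2 to 6.82, 12.8 and 6.92 at D6. The groups did not overlap, and the log2 fold change was 1.46 ± 0.34 with an adjusted p of 0.0558 by limma-voom. In mTECs Prss16 was higher at D6 as well (2.80 ± 0.38). The summed cTEC markers in these mTEC samples averaged 1265 FPKM at D-2 and 3666 at D6. Their median log2 fold change was 1.30 over 9 genes, 1 of them called, beside 0.0206 over all genes tested. The part of cTEC RNA in the Cd83 values of mTECs was not tested. The interaction of cell type and time was 2.20 ± 0.48 for Cd83, with an unadjusted p of 0.00033 and an adjusted p of 0.128, and it was called by DESeq2 (adjusted p = 7.95e-05). By limma-voom no ligand was called for this interaction, beside 0.00544% of 18394 genes (1 gene). At an unadjusted p below 0.05 there were 3 ligands, beside 2203 of the 18394 genes. Of the ligands edgeR called 0 and DESeq2 1, beside 2 and 126 genes.

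Cd80 had lower values at D6. In cTECs it was 4.44, 6.69 and 3.43 FPKM at D-2 and 0.48, 0.64 and 0.77 at D6, without overlap, with a log2 fold change of -3.03 ± 0.71 and an adjusted p of 0.0375 by limma-voom. In mTECs it was 19.6, 37.5 and 10.3 FPKM at D-2 and 5.60, 4.16 and 5.42 at D6, also without overlap, with a log2 fold change of -1.71 ± 0.61 (adjusted p = 0.161). Both differences were called by DESeq2 (adjusted p = 0.00016 and 7.70e-05), and neither by limma-voom at the threshold of 0.01. DESeq2 called 757 genes in cTECs and 470 in mTECs here, and limma-voom 213 and 53. Aire, which marks the mature mTECs known for high CD80, averaged 8.07 FPKM in D-2 cTECs and 2.03 in D6 cTECs, beside 104 and 63.0 in mTECs.

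The other ligands at D6 were mixed. Cd40 in cTECs was 13.1, 25.4 and 17.3 FPKM at D6 against 2.42, 6.88 and 8.48 at D-2, without overlap (log2 fold change 1.70 ± 0.47, adjusted p = 0.0647 by limma-voom), while in mTECs it was 58.2, 37.8 and 40.8 against 32.3, 41.9 and 38.3 (0.19 ± 0.21). Pdcd1lg2 in cTECs was 0, 1.03 and 2.94 FPKM at D6 and 1.73, 7.04 and 2.98 at D-2, with overlap (-3.87 ± 1.58, adjusted p = 0.175). Cd274 in cTECs spanned 75.0 to 317 FPKM at D6, and 1 mouse, replicate 5, held the highest level of the series. Of the other lists in cTECs, Nectin2 (-1.86 ± 0.21), an adhesion ligand, Nfkbia (-1.49 ± 0.23), an inhibitor of NF-kB, Ifit1 (-1.37 ± 0.20) and the mTEC marker Cldn3 (-2.05 ± 0.33) were lower at D6.

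**Figure D3:**
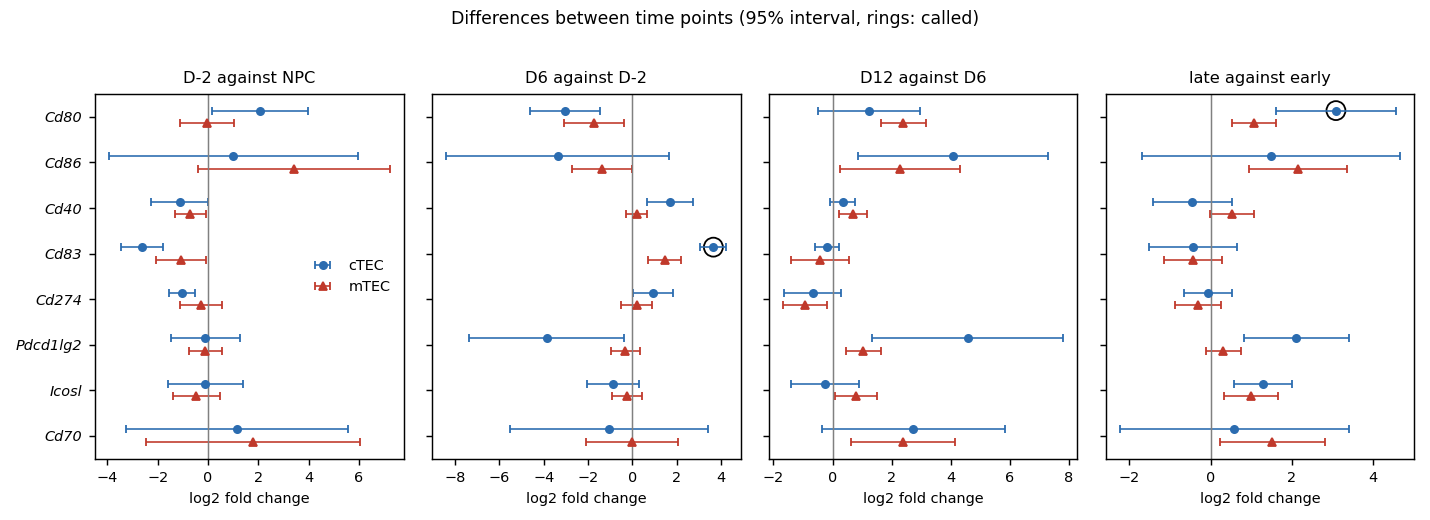
Log2 fold change of each ligand between time points with its 95% interval from limma-voom, for cTECs (circles) and mTECs (triangles). Black rings mark the 2 calls, Cd83 at D6 against D-2 (3.66) and Cd80 in late against early regeneration (3.08), both in cTECs.

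D12 was compared with D6 after the levels had been seen to differ inside early regeneration, so this comparison was chosen with its values known. By limma-voom no ligand and no gene was called at the threshold in either cell type (0% of 15845 genes in cTECs and 0% of 17743 in mTECs). At an unadjusted p below 0.05 there were 2 ligands of 2473 genes in cTECs and 7 of 2853 in mTECs. Of the ligands edgeR called 0 and 0, beside 0 and 0 genes, and DESeq2 0 and 1, beside 105 and 259 genes. Cd80 in mTECs had the smallest p of the ligands. It was 5.60, 4.16 and 5.42 FPKM at D6 and 23.2, 30.0 and 26.7 at D12, with wide space between the groups, and its log2 fold change was 2.40 ± 0.35 (adjusted p = 0.0485).

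The other ligands of mTECs had larger p. Cd70 was 12.8, 16.4 and 17.2 FPKM at D12 against 7.16, 0.82 and 4.34 at D6 (2.39 ± 0.80, adjusted p = 0.195 by limma-voom). Pdcd1lg2 was 24.1, 30.4 and 27.2 FPKM against 17.0, 9.81 and 12.4 (1.04 ± 0.27, adjusted p = 0.122). Cd40 overlapped, at 46.0, 78.7 and 75.1 FPKM against 58.2, 37.8 and 40.8 (0.71 ± 0.21). Mean FPKM at D12 and D6 was 37.2 and 22.5 for Icosl and 4.96 and 1.45 for Cd86. The ligands did not all move one way. Cd274 averaged 41.4 FPKM at D12 and 67.6 at D6, with log2 fold changes of -1.07 to -0.39 over the alternatives. Cd83 averaged 7.43 and 8.84. The summed dendritic cell and macrophage markers in mTECs were 45.9 to 189 FPKM at D6 and 217 to 330 at D12, and the summed B cell markers 59.0 to 114 and 128 to 139. The summed cTEC markers in the same mTEC samples averaged 3666 FPKM at D6 and 1385 at D12 (median log2 fold change -1.49 over 9 genes, none called). Their part in these differences was not tested.

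Late regeneration was compared with early regeneration. In cTECs 1 ligand was called, Cd80, beside 1.41% of 15845 genes. In mTECs no ligand was called by limma-voom, beside 0.062% of 17743 genes. At an unadjusted p below 0.05 there were 4 ligands, beside 3541 of the 17743 genes. The ligands called by edgeR and DESeq2 were 0 and 0, beside 2 and 20 genes.

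Cd80 in cTECs was 6.07, 10.1, 6.15 and 6.05 FPKM at D16, D20, D24 and D28, and in the 18 early samples its lowest, median and highest values were 0, 1.64 and 8.52. Of the early samples, only cTEC D3 replicate 2, a library with few genes detected, reached into the late range. The cTEC D20 library, which held the highest late value, also had few genes with counts (13483, with 2 ligands at 0). The log2 fold change was 3.08 ± 0.71 (limma-voom, adjusted p = 0.00865). The call rested on the setting. It was not made by edgeR (1.78, adjusted p = 0.294) or by DESeq2 (1.81), nor without D16, D20 or D28, where the log2 fold change was 3.11, 2.835 and 3.26 with adjusted p of 0.0111, 0.0263 and 0.0208, and with D12 counted as late the adjusted p was 0.241. It was kept without D24 (adjusted p = 0.0076).

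In mTECs Cd80 was 46.55, 21.02, 23.28 and 21.74 FPKM at D16, D20, D24 and D28 against 4.16 to 30.0 (median 8.36) in early samples. The early values that reached the late range were those of D12, at 23.2 to 30.0 FPKM. The log2 fold change was 1.07 ± 0.26 (limma-voom, adjusted p = 0.0358), and with D12 counted as late it was 1.31 and called (adjusted p = 0.0006). Counting D12 as late raised the number of all genes called in mTECs from 11 to 159. The interaction of cell type and late against early for Cd80 was 1.97 ± 0.78, with an unadjusted p of 0.0154 and an adjusted p of 0.367. No ligand was called for this interaction by limma-voom, beside 0.00544% of 18394 genes. At an unadjusted p below 0.05 there were 2 ligands, beside 1867 of the 18394 genes. The ligands called by edgeR and DESeq2 were 0 and 0, beside 0 and 2 genes.

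Cd86 in mTECs was 10.6, 6.28, 13.5 and 9.38 FPKM in the late samples and at most 8.65 in the early ones, with a median of 1.79. Its log2 fold change was 2.14 ± 0.59 (limma-voom, adjusted p = 0.0535), and with D12 counted as late it was 2.58 and called (adjusted p = 0.00894). In cTECs Cd86 was 1.56, 0, 2.94 and 0.74 FPKM late and 0 to 1.84 early (log2 fold change 1.496 ± 1.541).

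Pdcd1lg2 and Icosl did not pass the threshold in either cell type. In cTECs Pdcd1lg2 was 6.07, 13.5, 8.33 and 8.73 FPKM late against 0 to 8.09 early (median 2.92), with a log2 fold change of 2.11 ± 0.63 (limma-voom, adjusted p = 0.0322). Icosl was 7.33, 4.23, 6.38 and 9.38 FPKM late against 0.90 to 5.11 early (median 2.49), with a log2 fold change of 1.29 ± 0.35 (adjusted p = 0.0212). Icosl was called with sample quality weights (1.85, adjusted p = 3.53e-05) and without D20 (1.75, adjusted p = 0.0012). These fits called 1045 and 209 of all genes, where the main fit called 223. For this comparison in cTECs edgeR and DESeq2 called 0 and 0 ligands, beside 45 and 94 genes. In mTECs the differences were 0.31 ± 0.21 for Pdcd1lg2 and 0.98 ± 0.32 for Icosl, with adjusted p of 0.411 and 0.0927, and the differences between the cell types were 1.82 ± 0.65 (adjusted p = 0.305) and 0.28 ± 0.74 (adjusted p = 0.939).

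Cd40 in mTECs was 118, 81.2, 105 and 65.8 FPKM late and 18.8 to 79.6 early (median 47.0), with a log2 fold change of 0.53 ± 0.27 (limma-voom, adjusted p = 0.263). In cTECs it spanned 4.06 to 23.7 late and 0 to 25.4 early (-0.45 ± 0.47). Cd83 in cTECs was 248 FPKM at D16 but 105.5, 54.2 and 50.9 at D20, D24 and D28, so the late group spanned much of the early range of 22.2 to 246, and its log2 fold change was -0.43 ± 0.52 (adjusted p = 0.639). Cd274 was 200, 66.5, 47.4 and 218 FPKM late in cTECs, the lowest and one of the highest values of that cell type, and its log2 fold change was -0.06 ± 0.29 (adjusted p = 0.927). Cd70 in mTECs was 15.03, 10.99, 4.72 and 9.73 FPKM late and 0 to 17.2 early (1.52 ± 0.63, adjusted p = 0.176).

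Other genes that were called in cTECs in the same comparison were Vsir (1.30 ± 0.16), the gene of the checkpoint ligand VISTA, Ifit3 (1.19 ± 0.22), Aire (2.07 ± 0.44) and Foxn1 (-1.28 ± 0.26), the transcription factor of thymic epithelium. Vsir was also called in the interaction with cell type (1.32 ± 0.22, adjusted p = 0.0033 by limma-voom). Aire in cTECs averaged 13.9 FPKM late and 2.03 at D6, while mTECs averaged 217.5 and 63.0. Aire in cTECs was between 3.23% and 16.9% of the mTEC mean over the replicated time points and late regeneration, and Cd80 between 8.32% and 55.3%. The summed dendritic cell and macrophage markers were 33.2 to 76.9 FPKM late and 19.2 to 56.7 early in cTECs, and 182 to 445 and 45.9 to 330 in mTECs. The part of mTECs or other cells in the cTEC values was not tested.

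Across the 28 samples of a cell type, the mTEC ligands varied with Aire. Pearson's r of log2(FPKM + 0.5) with Aire in mTECs was 0.85 for Cd40, 0.82 for Icosl, 0.79 for Cd80, 0.65 for Cd86, 0.55 for Pdcd1lg2 and 0.40 for Cd70. It was 0.09 for Cd274 and 0.04 for Cd83, the pair that was higher in cTECs on average. With Foxn1 in mTECs r was between -0.63 (Icosl) and -0.21 (Cd70) for those 6 ligands. In cTECs r with Aire was 0.81 for Cd80, 0.54 for Icosl, 0.36 for Pdcd1lg2, 0.07 for Cd274 and -0.33 for Cd40. These are descriptions over samples that share libraries, and r of Cd80 in mTECs was 0.81 with the summed dendritic cell and macrophage markers.

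**Figure D4:**
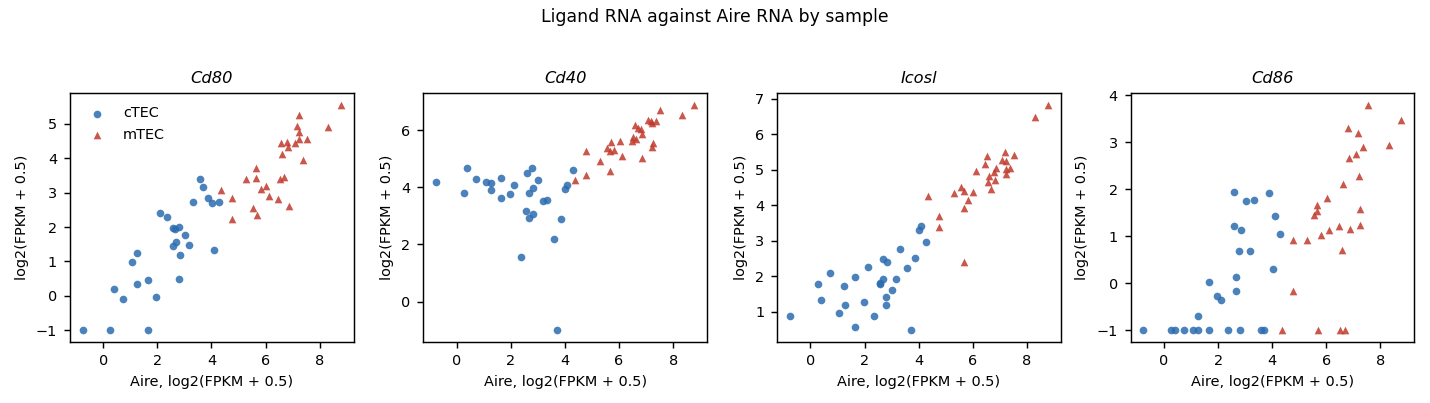
Level of Cd80, Cd40, Icosl and Cd86 against that of Aire in each sample, both as log2(FPKM + 0.5), for cTECs (circles) and mTECs (triangles). In mTECs Pearson's r over 28 samples was 0.79, 0.85, 0.82 and 0.65 in this order, and the cTEC library with Cd40 at 0 counts is D3 replicate 2.

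The genes whose levels were most like those of each ligand over the 28 mTEC samples, among 10502 with a mean FPKM of at least 5, differed from ligand to ligand. They were Nos2 (r = 0.88), Adgb (0.87) and Crybg1 (0.85) for Cd80 and Ooep (0.78), Adgb (0.77) and Ndufc2 (0.77) for Cd86. For Cd40 they were Nid2 (0.88), Top2a (0.87), a topoisomerase of dividing cells, and Il4i1 (0.86), an amino acid oxidase. For Icosl they were Ptprq (0.90), Htr7 (0.88) and Dsg1b (0.87), for Pdcd1lg2 Bcl2l15 (0.83), Arfgap3 (0.81) and Dppa3 (0.80), and for Cd70 Rhbdl2 (0.82), Tes (0.81) and Fam162a (0.80). Over the 28 cTEC samples those of Cd274 were Odc1 (0.87), an enzyme of polyamine synthesis, Cxcl10 (0.85), a chemokine induced by interferon, and Tra2a (0.80), a splicing factor.

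Among the ligands themselves, Cd80 in mTECs had r of 0.70 with Icosl, 0.67 with Cd86, 0.62 with Cd70, 0.58 with Cd40 and 0.54 with Pdcd1lg2, but -0.07 with Cd83 and -0.14 with Cd274. Cd274 stood apart in both cell types, with r between -0.17 and 0.27 to each other ligand followed there. In cTECs the highest r between ligands was 0.65, for Pdcd1lg2 and Icosl.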

How the data were processed

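RNA of sorted cTECs and mTECs was sequenced from polyadenylated, strand-marked libraries. The submitters' processing notes name bcl2fastq 2.20, Trimmomatic 0.35, STAR 2.5.1b, RSEM 1.2.28 and the build GRCm38. The authors deposited, for each sample, an RSEM expected count and an FPKM value per gene, and both were used as deposited. Gene symbols came from GENCODE M21 (50376 of 50600 identifiers matched).

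Expected counts were rounded and tested with limma-voom (limma 3.58.1, R 4.3.3) after TMM scaling, after leaving out genes whose FPKM averaged below 0.5 over the cell type's 28 samples, or over those of each cell type where both were fitted. Calls needed a fold of at least 2 and an adjusted p of at most 0.01. Alternatives used edgeR 4.0.16, DESeq2 1.42.0 and other filters, weights, samples and scalings. The fits were tested on simulated data. Named genes were the 8 ligands, of each of 10 lists the called genes (at most the 3 with the largest change per comparison), and the 3 genes with the highest Pearson's r to each ligand. Other list genes (the receptors not called, and Itgax, Clec9a, Zbtb46, Ccr7, Fscn1, Lyz2, Ptprc and Foxn1 where not called) were named after their values were seen. The members and lists were chosen with earlier results of these data known. For a count of 0, 3 counts were taken as an approximate upper limit, counting error only. Tables and figures were made with Python 3.11.15, pandas 2.3.3, NumPy 2.4.6 and matplotlib 3.10.9.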

Additional observations from a re-analysis of the deposited data

Results flagged for a closer look

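Within the 4 late samples, 4 of 16 combinations of ligand and cell type held 1 sample far from the others by Dixon's criterion. For normal replicates of 1 population that criterion flags about 1 in 20 groups by chance. The late samples are from 4 different days and the 16 groups share libraries, so that rate cannot judge these flags. Cd80 in cTECs was 10.12 FPKM at D20 and 6.05 to 6.15 at the other late times. In mTECs the D16 sample held the other 3, with Cd80 at 46.55 FPKM (others 21.02 to 23.28), Cd83 at 13.21 (others 2.28 to 3.78) and Icosl at 113.8 (others 30.31 to 42.09). The mTEC D16 library also had the most genes with counts (25798), and the part of this in the 3 values was not tested. For the cTEC D20 library that number was 13483, and its part in the Cd80 value was not tested.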

How the results depend on the processing

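Of the counts of called ligands, 132 stayed within 1.5 times the main count under the alternatives, 15 rose and 6 fell. The 132 include main counts of 0 that stayed 0, so this number does not measure how well the calls held. For cTEC D-2 against NPC, DESeq2 called 2 and no filter 1. Without the filter 46 of all genes were called, and 0 in the main fit. For D6 against D-2, DESeq2 called 2 in cTECs, 2 in mTECs and 1 in the interaction, and an adjusted p of at most 0.05 gave 2 in cTECs. That looser threshold called 690 of all genes in cTECs, where the main fit called 213. For cTEC late against early, edgeR, DESeq2, no filter and D12 counted as late gave 0, quality weights 2, an adjusted p of at most 0.05 gave 3, and leaving out a late sample 0 to 1. In the same order, 45, 94, 168, 0, 1045, 646 and 52 to 439 of all genes were called. The main fit called 223. For mTEC late against early, no filter and an adjusted p of at most 0.05 gave 1, and D12 counted as late 2. These settings called 143, 184 and 159 of all genes, and the main fit 11. For mTEC D12 against D6, DESeq2, no filter and an adjusted p of at most 0.05 gave 1, and quality weights 2. These settings called 259, 45, 28 and 389 of all genes, and the main fit 0. Over all genes, DESeq2 called 96 for cTEC D-2 against NPC, where limma-voom called 0. For D6 against D-2 DESeq2 called 757 genes in cTECs, 470 in mTECs and 126 in the interaction, where limma-voom called 213, 53 and 1. For mTEC D12 against D6 the numbers were 259 and 0. The number of all genes called for cTEC late against early ran from 0 to 1045. The cause of these changes was not tested.

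Replicate numbers were not taken to pair the samples. Deviations of same-numbered cTEC and mTEC samples had a median r of 0.0267 (16 pairs), and those of other-numbered samples one of -0.0111 (38 pairs). Low r between separately sorted and sequenced populations cannot show whether both came from 1 mouse. With a block for samples that share a time point and a number, the calls were 7 for cTECs against mTECs and 0 in the interactions. Between time points the block joined samples by their order of replicate number in each group. These are different mice, so that block stands for no known pairing. With it the calls were 1 for cTEC D6 against D-2 and 0 in the other comparisons where it was fitted.

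Some log2 fold changes, none of them called, changed sign. With quality weights they were, for D-2 against NPC, 0.0595 for Icosl in cTECs and 0.0137 for Cd80 in mTECs, -0.34 for Cd274 in mTECs at D6 against D-2, 0.14 for Cd83 and 0.75 for Cd274 in cTEC late against early, and 0.75 for Cd86 and 0.71 for Cd83 in its interaction. With the block by order of replicate number they were 0.22 for Pdcd1lg2 in cTECs, and 0.14 for Cd80 and -0.40 for Cd70 in mTECs, at D-2 against NPC. With edgeR and DESeq2 they were 0.21 and 0.21 for Cd80 and -0.0455 and -0.0448 for Cd70 (mTEC D-2 against NPC), 0.15 and 0.20 for Cd274 (cTEC late against early), 0.28 and 0.35 for Cd70 (interaction at D6), and 0.13 and 0.17 for Cd83 (interaction, late). Without the filter they were 0.11 for Cd274 in cTEC late against early and -0.27 for Icosl in its interaction. With D12 as late they were 0.16 for Cd40 and 0.21 for Cd83 in cTECs, and 0.45 for Cd83 and -0.50 for Icosl in the interaction. In leave-one-out fits for cTEC D-2 against NPC Pdcd1lg2 -0.80 to 0.28, Icosl -0.67 to 0.36, Cd86 -1.10 to 2.91. For mTEC D-2 against NPC Pdcd1lg2 -0.47 to 0.0184, Cd80 -0.48 to 0.71, Cd70 -1.71 to 3.35, Cd274 -0.62 to 0.24. For cTEC D6 against D-2 Cd70 -2.47 to 0.86. For mTEC D6 against D-2 Cd40 -0.0244 to 0.42, Cd274 -0.17 to 0.56, Icosl -0.68 to 0.23, Cd70 -1.10 to 1.15, Pdcd1lg2 -0.61 to 0.0368. For cTEC late against early Cd274 -0.44 to 0.33, Cd70 -0.0857 to 2.16. For interaction of cell type and D6 against D-2 Cd70 -2.21 to 0.81. For interaction of cell type and late against early Cd83 -0.33 to 0.77, Cd86 -1.51 to 1.13, Cd70 -1.58 to 0.60, Cd274 -0.21 to 0.60, Icosl -0.14 to 0.80. For cTEC D12 against D6 Icosl -0.86 to 0.61. Alternatives moved the median of all genes by -0.27 to 0.25 (log2).

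Cd86 and Cd70 had 0 counts in 11 cTEC libraries each, the deepest (44409019 counts) included, and late regeneration rests on 1 sample per time point.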
